A study of Bos taurus with 48 samples.

Results

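Liver was compared with mammary parenchyma in dairy calves (Bos taurus) by RNA sequencing, using 24 of the 47 libraries of a series that also covers the mammary fat pad. The members were chosen by label alone: 12 liver libraries and 12 parenchyma libraries, 6 of each from calves on the Unlimited nutrition diet and 6 of each from calves on the Restricted nutrition diet. Unlimited calves were offered milk replacer freely at set meals, and restricted calves had their daily milk replacer ration reduced. Control calves on standard nutrition gave 4 further liver and 3 further parenchyma libraries, which took no part in the main comparison and served as separate libraries in which to repeat it. The labels give neither the age of the calves nor whether each library is a separate calf, so p-values describe the spread between these samples.

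Liver consists mainly of hepatocytes, which secrete most plasma proteins and carry out urea synthesis, glucose production, bile acid synthesis and the clearance of foreign compounds. Mammary parenchyma of a calf is the growing epithelial tree of the gland with the connective tissue, vessels and immune cells around it, and it does not yet secrete milk. A tissue piece of either kind holds several cell types, and in such bulk samples fewer cells of a type and less RNA per cell cannot be told apart. Genes are given by Ensembl identifier without a name, and 0 of the 27607 identifiers could be matched to a RefSeq gene table. No gene function, marker list or sequence could therefore be attached to the values, and the tissue labels could not be checked against marker genes.

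The libraries fell by tissue as labelled. Across the 15629 genes tested, which are not independent replicates, Pearson correlations of log2 levels were 0.938 to 0.989 between pairs of liver libraries and 0.942 to 0.987 between pairs of parenchyma libraries. Between a liver and a parenchyma library they were 0.623 to 0.699. Each liver library had 9.51 to 17.4 M gene counts, M being the metric mega, and each parenchyma library 9.70 to 18.4 M, and the means of 13.6 ± 2.72 and 13.3 ± 3.36 M (SD, n = 12 each) were within the spread between libraries (permutation p = 0.855, adjusted p = 0.855, two-sided).

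Most genes differed between the tissues, in nearly equal numbers on both sides. Of 15629 genes tested with diet as a covariate, 5705 were higher in liver (36.5%) and 5932 were higher in parenchyma (38.0%) at an edgeR quasi-likelihood adjusted p under 0.05, the threshold of every call given here. Together these were 74.5% of the genes tested. The near balance depends on how library sizes are scaled. Scaling by trimmed mean of M values (TMM), used throughout, corrects for a few very abundant genes taking up the reads. With library totals alone, the median log2 fold change of all genes shifted by -0.42, and 3754 genes were called higher in liver and 8365 higher in parenchyma.

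Many of the called differences were small, and a smaller set was large. The median absolute log2 fold change was 1.203 among genes called higher in liver and 1.07 among genes called higher in parenchyma. A test against a 2-fold limit rather than against no difference called 2633 genes higher in liver (16.8% of those tested) and 2479 higher in parenchyma (15.9%), together 32.7%. Genes called and at least 4-fold apart are named liver-enriched or parenchyma-enriched from here on. There were 1859 liver-enriched genes (11.9%) and 1639 parenchyma-enriched genes (10.5%). With library totals alone these counts were 1534 and 2121.

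In 2345 genes every one of the 12 liver libraries lay above all 12 parenchyma libraries (15.0% of those tested), and in 2446 genes every parenchyma library lay above all liver libraries (15.7%). Separation was the rule among the enriched genes: 1513 of the 1859 liver-enriched genes and 1289 of the 1639 parenchyma-enriched genes had no overlap between the tissues. Because enrichment was called in the same libraries, these counts describe the sets and test nothing further. They rest on TMM-scaled levels, and their near balance was not examined with library totals alone.

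The tail of very large differences was longer on the liver side. The median absolute log2 fold change was 4.00 for liver-enriched and 3.41 for parenchyma-enriched genes. For 90 liver-enriched genes no read was counted in any of the 12 parenchyma libraries, and for 64 parenchyma-enriched genes none was counted in any of the 12 liver libraries. Their fold changes are lower bounds, set against a floor of 3 counts over the 12 libraries of the other tissue, and the medians above did not change when the bounds were used. The bounds ranged from at least 50.6-fold to at least 22785-fold higher in liver, and from at least 27.3-fold to at least 4965-fold higher in parenchyma. Counting these genes at their bound, 575 liver-enriched genes and 229 parenchyma-enriched genes differed by 64-fold or more, and 333 and 65 genes by a log2 value of 8 or more.

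**Figure D1:**
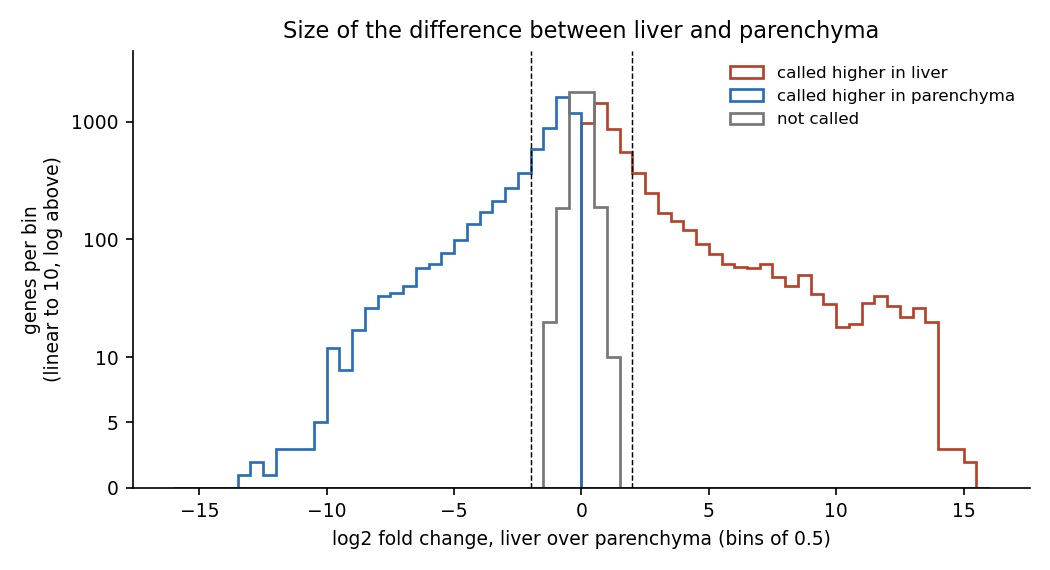
Number of genes (y axis, linear to 10 and logarithmic above) in bins of 0.5 of the log2 fold change of liver over parenchyma (x axis), for genes called higher in liver, called higher in parenchyma and not called, with dashed lines at 4-fold in either direction. The parenchyma side falls off steadily, while the liver side has a longer tail, with 354 genes at a log2 value of 8 or more against 82 in parenchyma. Fitted values are shown, so genes without a count in the other tissue are not held at their bounds.

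The counts of the enriched genes were spread differently over the classes of fold change on the liver and the parenchyma side. Among liver-enriched genes, the 102 genes at a log2 fold change of 12 or more (4096-fold) had a median level of 547 CPM (counts per M gene counts) in liver and held 17.1% ± 2.84 of all liver counts (SD, n = 12). The 99 genes from 10 up to 12 held 9.83% ± 1.32, and the 132 genes from 8 up to 10 held 2.47% ± 0.293. The largest class, 930 genes from 2 up to 4, held 9.16% ± 0.918 of liver counts at a median of 15.0 CPM. The counts of liver thus lay at both ends of the range of fold changes.

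On the parenchyma side most counts lay at the smaller fold changes. The 1020 parenchyma-enriched genes with an absolute log2 fold change from 2 up to 4 held 10.7% ± 0.837 of parenchyma counts, and the 390 genes from 4 up to 6 held 8.93% ± 1.27 (SD, n = 12). The 164 genes from 6 up to 8 held 2.18% ± 0.377, the 49 genes from 8 up to 10 held 0.584% ± 0.0468, and the 15 genes from 10 up to 12 held 0.712% ± 0.0861. One further gene lay above 12, with 117.5 CPM in parenchyma and no count in liver. Median levels rose with fold in the upper classes on both sides. From 6 up to 8, 8 up to 10 and 10 up to 12, they were 10.0, 33.8 and 132.7 CPM for parenchyma-enriched genes in parenchyma. For liver-enriched genes in liver they were 7.01, 55.4 and 131 CPM. Large folds can be seen only in genes of sufficient level, as the floor of 3 counts is 0.0187 CPM in parenchyma and 0.0184 CPM in liver.

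As a share of each library, liver-enriched genes took up far more of liver than parenchyma-enriched genes took up of parenchyma. Liver-enriched genes held 43.9% ± 5.59 of the counts of liver libraries (SD, n = 12), with a lowest value of 32.9%, a median of 44.4% and a highest value of 50.7%. In parenchyma libraries the same genes held 1.94% ± 0.116, from 1.69% to 2.12%. Parenchyma-enriched genes held 1.41% ± 0.300 of liver counts, from 1.01% to 2.04%. In parenchyma libraries they held 23.1% ± 1.84, with a lowest value of 19.0%, a median of 23.4% and a highest value of 25.2%. These shares are percentages of each library's own gene counts and do not depend on TMM scaling, except through the choice of genes, and they carry no test because the genes were chosen in these libraries.

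Within either set a small number of genes carried most of the counts. Ordered by mean level in their own tissue, 28 of the 1859 liver-enriched genes held 50% of the counts of the set, and 22 of the 1639 parenchyma-enriched genes did so. The 10 most abundant liver-enriched genes held 16.1% ± 2.52 of liver counts and 0.138% ± 0.0437 of parenchyma counts (SD, n = 12 each). The 10 most abundant parenchyma-enriched genes held 0.414% ± 0.119 of liver counts and 8.71% ± 1.34 of parenchyma counts. Levels of 1000 CPM or more were reached by 73 liver-enriched genes in liver and by 36 parenchyma-enriched genes in parenchyma, and levels of 10000 CPM or more by 5 and 3. The median levels were 21.4 CPM in liver for liver-enriched genes and 13.8 CPM in parenchyma for parenchyma-enriched genes. CPM is not divided by gene length, so it gives the share of reads and not the number of molecules.

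The most abundant enriched genes of liver had larger fold changes than those of parenchyma, while both lists held a small share of the other tissue. The 100 most abundant liver-enriched genes had a median log2 fold change of 10.94, and 71 of them differed by 64-fold or more. The 100 most abundant parenchyma-enriched genes had a median absolute log2 fold change of 3.91, and 19 of them differed by 64-fold or more. The liver list held 31.3% ± 4.92 of liver counts and 0.814% ± 0.0910 of parenchyma counts, and the parenchyma list held 0.933% ± 0.208 of liver counts and 17.3% ± 1.88 of parenchyma counts (SD, n = 12 each). For the remaining enriched genes the medians were 3.89 in liver and 3.39 in parenchyma. In the control libraries, which had no part in choosing these genes, the medians for the same lists of 100 were 10.92 in liver and 3.15 in parenchyma.

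The 100 most abundant genes of each tissue, taken without regard to any test, had 25 genes in common, 25% of either list. Of the liver list, 73 were liver-enriched, and of the parenchyma list, 39 were parenchyma-enriched. The shared genes held 11.9% ± 2.41 of liver counts and 13.9% ± 1.33 of parenchyma counts (SD, n = 12 each). Genes called higher in liver at any fold made up 68.3% ± 3.71 of liver counts, genes called higher in parenchyma 58.0% ± 1.28 of parenchyma counts. The 3992 genes that were not called held 15.3% ± 2.26 of liver counts and 21.9% ± 0.909 of parenchyma counts.

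The next comparison used no choice of genes and asked how evenly counts were spread in each tissue. Counts were more concentrated in liver. The 10 most abundant genes of each library held 21.2% ± 1.04 of its counts in liver and 15.6% ± 1.17 in parenchyma (SD, n = 12 each), and every liver library lay above every parenchyma library (permutation p = 4e-05, adjusted p = 0.00032 over 24 tests of library measures, two-sided). The 100 most abundant genes held 40.9% ± 2.23 in liver and 32.1% ± 1.97 in parenchyma (permutation p = 4e-05, adjusted p = 0.00032). It took 249 ± 64.9 genes to reach 50% of the counts in liver and 505 ± 74.9 in parenchyma (permutation p = 4e-05, adjusted p = 0.00032). The lowest and highest of these gene numbers were 177 and 365 in liver and 392 and 642 in parenchyma.

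**Figure D2:**
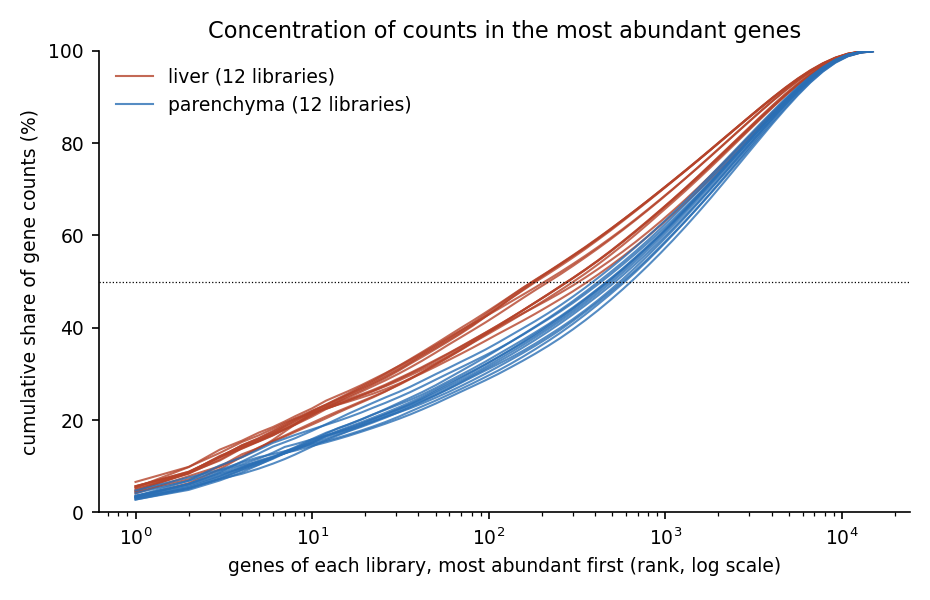
Cumulative share of gene counts (y axis, percent) against the rank of genes within each library, most abundant first (x axis, log scale), with a line for each of 12 liver and 12 parenchyma libraries and a dotted line at 50%. All liver lines cross 50% to the left of the parenchyma lines, at 177 to 365 genes against 392 to 642.

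The difference in concentration had the same direction within each diet. In unlimited calves 284 ± 60.7 genes in liver and 456 ± 41.4 in parenchyma held 50% of counts, and in restricted calves 214 ± 51.6 in liver and 554 ± 70.0 in parenchyma did (SD, n = 6 each). For both, the exact permutation p was 0.00217, the smallest possible with 6 against 6 (adjusted p = 0.00577). Whether the difference between tissues itself differed between diets was not tested.

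Liver libraries also held fewer detected genes at equal depth. When every library was reduced to 9514807 counts, the lowest total, the expected number of genes with at least 1 count was 17560 ± 502 in liver and 18044 ± 361 in parenchyma (SD, n = 12 each, permutation p = 0.0128, adjusted p = 0.0255). Within diets, the numbers were 17681 ± 649 in liver and 17879 ± 249 in parenchyma of unlimited calves (exact permutation p = 0.487 with n = 6 each, adjusted p = 0.531). In restricted calves they were 17439 ± 314 in liver and 18209 ± 398 in parenchyma (exact permutation p = 0.00866 with n = 6 each, adjusted p = 0.0208). The call was made in restricted and not in unlimited calves, and the difference between the diets was not tested.

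Technical measures of the libraries were set beside these results. The share of uniquely placed reads that was assigned to genes was 33.7% ± 5.26 in liver and 36.6% ± 6.75 in parenchyma (SD, n = 12 each, permutation p = 0.241, adjusted p = 0.289). In unlimited calves alone it was 30.9% ± 4.94 in liver and 39.2% ± 4.86 in parenchyma (exact permutation p = 0.0217 with n = 6 each, adjusted p = 0.0400), and in restricted calves 36.5% ± 4.22 in liver and 34.0% ± 7.76 in parenchyma (exact permutation p = 0.511, adjusted p = 0.533). With this share as a further covariate, edgeR called 5708 genes higher in liver and 5962 higher in parenchyma.

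The share of liver counts in liver-enriched genes was lower on the unlimited diet. The share averaged 40.2% ± 5.12 in unlimited liver, against 47.6% ± 3.07 in restricted liver (n = 6 each, SD), a difference of -7.43 percentage points (exact permutation p = 0.0108, adjusted p = 0.0236 over 24 tests). The unlimited values ran from 32.9% to 44.5% and the restricted values from 42.7% to 50.7%, so the groups overlapped. Liver libraries 3 and 6 of the unlimited diet had the lowest shares, 32.9% and 34.5%, and without both the difference was -4.19 points (exact permutation p = 0.0476, not adjusted). The share of reads assigned to genes moved the same way, with 30.9% ± 4.94 in unlimited and 36.5% ± 4.22 in restricted liver, and stood at 25.5% and 26.0% in libraries 3 and 6. Its part in the difference was not tested.

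In parenchyma the share held by parenchyma-enriched genes was 23.6% ± 1.31 in unlimited and 22.6% ± 2.26 in restricted calves (SD, n = 6 each), a difference within the spread between libraries (exact permutation p = 0.374, adjusted p = 0.428). Each set was also read at low level in the other tissue. Parenchyma-enriched genes held 1.59% ± 0.298 of counts in unlimited and 1.24% ± 0.193 in restricted liver (exact permutation p = 0.0390, adjusted p = 0.0623). Liver-enriched genes held 2.01% ± 0.0852 in unlimited and 1.88% ± 0.109 in restricted parenchyma (exact permutation p = 0.0346, adjusted p = 0.0594). Neither of the last 2 differences passed after adjustment.

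**Figure D3:**
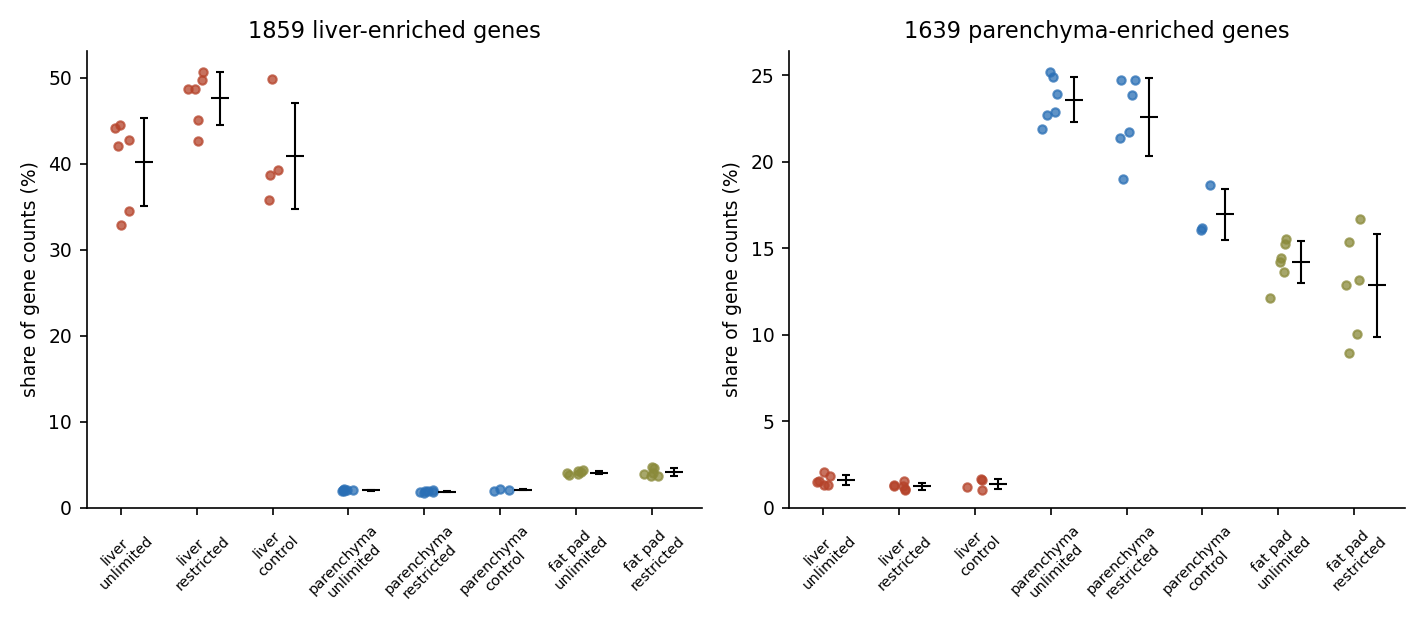
Share of each library's gene counts (y axis, percent) held by the 1859 liver-enriched genes (left) and the 1639 parenchyma-enriched genes (right), by tissue and diet with control and fat pad libraries beside them, with a point for each library and the mean with SD beside the points. Liver-enriched genes hold 32.9% to 50.7% of the counts of unlimited and restricted liver and at most 2.12% in parenchyma of the same diets, and parenchyma-enriched genes hold 19.0% to 25.2% in parenchyma and at most 2.04% in liver.

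The enriched genes that take up most of each library are given by identifier, since no name could be attached. They are the pair of highest mean CPM in its own tissue among the enriched genes of either side. ENSBTAG00000017121 was the most abundant liver-enriched gene and held 4.50% ± 1.23 of liver counts (SD, n = 12). In unlimited liver its lowest, median and highest values were 18507, 38288 and 53641 CPM, and in restricted liver 43666, 54369 and 56882 CPM. In parenchyma they were 2.27, 3.87 and 14.7 CPM on the unlimited diet and 4.30, 6.17 and 14.0 CPM on the restricted diet. Liver and parenchyma did not overlap, and the log2 fold change was 13.26 ± 0.44 (SE, edgeR adjusted p = 7.29e-20).

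ENSBTAG00000007273 held 3.17% ± 0.716 of liver counts (SD, n = 12). Its lowest, median and highest values were 18757, 33851 and 44586 CPM in unlimited liver and 26695, 31464 and 35619 CPM in restricted liver. In parenchyma they were 6.99, 16.0 and 36.04 CPM in unlimited calves and 5.99, 8.72 and 14.7 CPM in restricted calves. The tissues did not overlap, and the log2 fold change was 11.60 ± 0.42 (SE, edgeR adjusted p = 4.84e-19). In unlimited liver the lowest values of both genes, 18507 and 18757 CPM, came from library 6.

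ENSBTAG00000021466 was the most abundant parenchyma-enriched gene and held 2.31% ± 0.527 of parenchyma counts (SD, n = 12). In liver its lowest, median and highest values were 609, 901 and 2118 CPM on the unlimited diet and 380.4, 472 and 1159 CPM on the restricted diet. In parenchyma they were 18752, 20884 and 27790 CPM in unlimited and 15860, 21937 and 34816 CPM in restricted calves. The tissues did not overlap, although the gene was well detected in every liver library, and the log2 fold change was -4.46 ± 0.26 (SE, edgeR adjusted p = 1.29e-14).

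ENSBTAG00000013103 held 1.23% ± 0.349 of parenchyma counts (SD, n = 12). In liver its lowest, median and highest values were 112.4, 221 and 742 CPM in unlimited and 44.9, 78.0 and 297 CPM in restricted calves. In parenchyma they were 7906, 10420 and 17725 CPM in unlimited and 8927, 13215 and 17618 CPM in restricted calves. The tissues again did not overlap, and the log2 fold change was -5.63 ± 0.38 (SE, edgeR adjusted p = 3.83e-13). Both parenchyma-enriched genes had their highest value in unlimited liver in library 9 and their highest value in restricted liver in library 8.

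**Figure D4:**
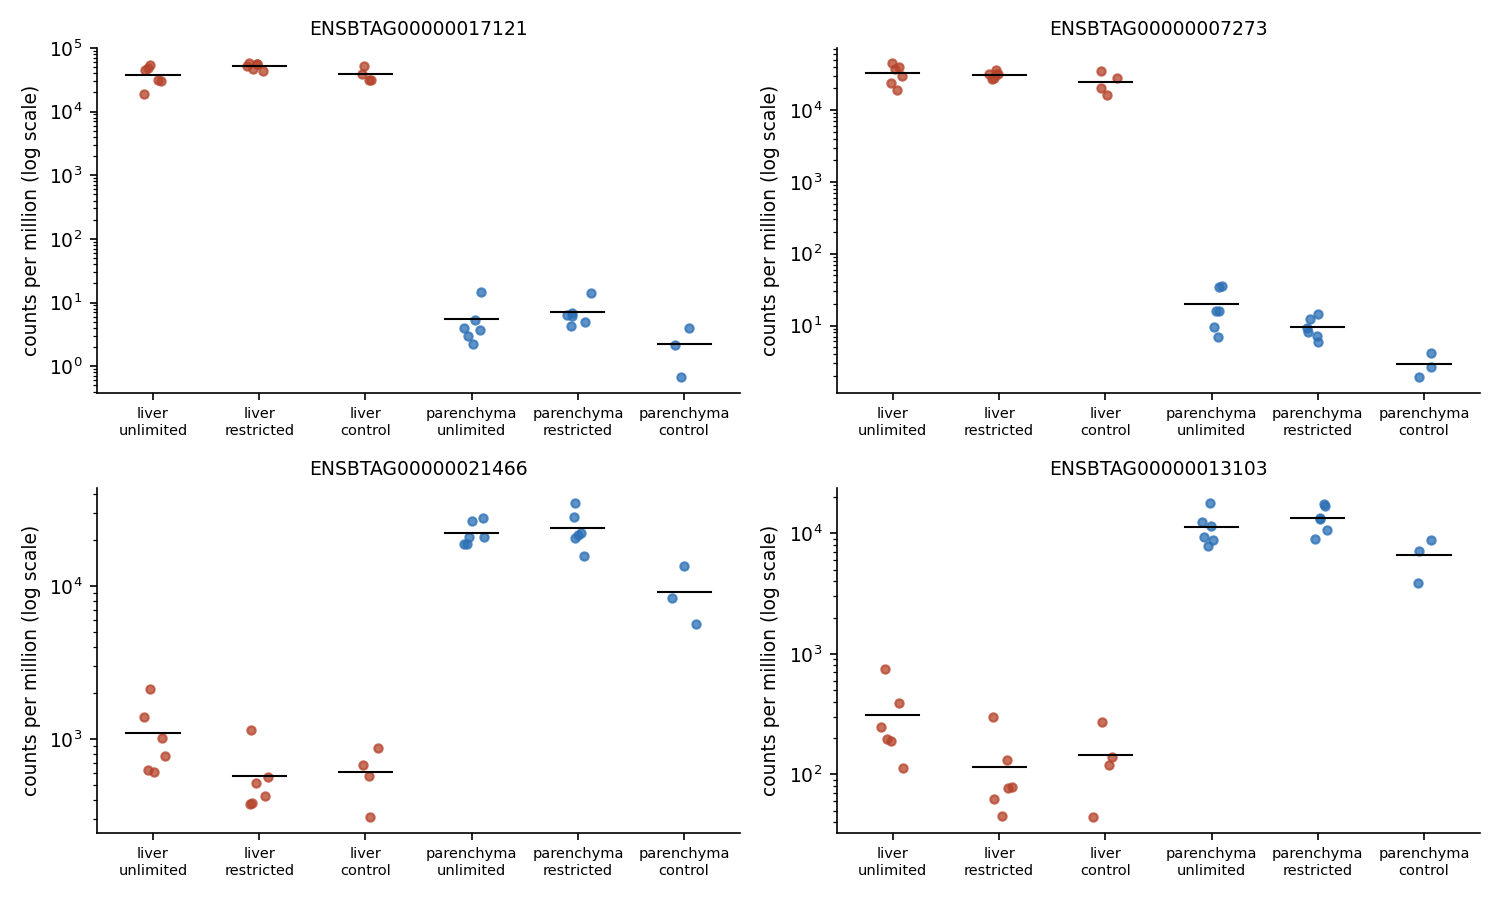
Level of the 4 identifiers (y axis, CPM, log scale) by tissue and diet, with a point for each library and a line at the group mean. The upper pair, liver-enriched, lies at 16260 CPM or above in all liver libraries and at 36.04 CPM or below in all parenchyma libraries, while the lower pair, parenchyma-enriched, is at 44.2 CPM or above in every liver library.

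Enriched genes had a higher median spread between libraries of their own tissue than all genes of like minimum level, themselves included. Among genes of 10 CPM or more in the tissue, the median within-diet SD of log2 CPM was 0.415 for 1128 liver-enriched genes in liver, against 0.273 for all 8628 such genes. It was 0.362 for 920 parenchyma-enriched genes in parenchyma, against 0.241 for all 9323 such genes. These are medians over genes, given as a description.

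Enrichment was spread unevenly over the range of mean level across the 24 libraries. This mean takes in the tissue where an enriched gene is low, which by itself moves such a gene to a lower class. The low-count filter also kept genes that passed in a single group. The counts by level are therefore a description. Among the 3126 tested genes of lowest mean level, 664 were liver-enriched and 727 parenchyma-enriched. Among the 3126 of highest mean level, 207 were liver-enriched and 148 parenchyma-enriched. The share of genes called at any fold was 71.0% in the lowest and 79.1% in the highest of these classes. The median absolute log2 fold change was 1.74 in the lowest and 0.60 in the highest class.

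The contrast was then fitted on each diet alone, which divides the 24 libraries into sets that share none. Among unlimited libraries, 4650 genes were called higher in liver (31.7% of 14675 tested) and 4754 higher in parenchyma (32.4%), together 64.1%. Among restricted libraries, 4984 were called higher in liver (34.1% of 14611) and 4947 higher in parenchyma (33.9%), together 68.0%. At least 4-fold higher in liver were 1599 genes in unlimited calves (10.9%) and 1702 in restricted calves (11.6%), and 1346 genes were in both lists, 84.2% of the unlimited and 79.1% of the restricted list. At least 4-fold higher in parenchyma were 1339 genes in unlimited calves (9.12%) and 1549 in restricted calves (10.6%), and 1137 were in both lists, 84.9% of the unlimited and 73.4% of the restricted list. Of 7682 genes called on both diets, 7621 had the same direction and 61 the opposite. Across the 14348 genes tested on both diets, the log2 fold changes had a Pearson correlation of 0.963, a value over genes and not over independent samples.

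Control calves gave a repeat in libraries that had not chosen the genes. In 4 liver and 3 parenchyma control libraries, edgeR called 3798 genes higher in liver (25.3% of 14986 tested) and 3629 higher in parenchyma (24.2%), together 49.6%. At least 4-fold higher were 1850 genes in liver (12.3%) and 1342 in parenchyma (8.96%). Of the 1859 liver-enriched genes, 1719 were tested there, 1716 had the same sign and 1655 were called higher in liver. Of the 1639 parenchyma-enriched genes, 1419 were tested, 1414 had the same sign and 1307 were called higher in parenchyma. Together 84.7% of all 3498 enriched genes were called in the same direction, and 94.4% of the 3138 that were tested. The low-count filter removed the rest, so the second share leaves out enriched genes of low level. Control liver library 1 stood apart, with 5.59 M gene counts against 9.75 to 12.1 M in the other control liver libraries. Its most abundant gene held 11.5% of counts, against 4.32% to 5.74% in those. Its file listed 16010946 reads as not aligned, while theirs listed 0. Without library 1, 81.6% of all enriched genes were called in the same direction.

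The sizes in controls were set beside those of the main comparison without a test. The liver-enriched genes tested in controls had a median log2 fold change of 4.17 there and of 3.97 in unlimited and restricted calves. The parenchyma-enriched genes had medians of -3.12 in controls and -3.35 in unlimited and restricted calves. Liver-enriched genes held 40.9% ± 6.14 of counts in control liver (SD, n = 4) and 2.09% ± 0.0864 in control parenchyma (n = 3). Parenchyma-enriched genes held 1.37% ± 0.302 in control liver (n = 4) and 16.96% ± 1.48 in control parenchyma (n = 3). The groups did not overlap for either share, and the exact permutation p of 0.0571 is the smallest that 4 against 3 allows (adjusted p = 0.0807).

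The most abundant parenchyma-enriched genes held less of control parenchyma, a difference that was not tested. The 100 most abundant of them held 17.3% ± 1.88 of counts in unlimited and restricted parenchyma (SD, n = 12) and 11.4% ± 1.41 in control parenchyma (n = 3), while the remaining 1539 held 5.79% ± 0.360 and 5.54% ± 0.174. ENSBTAG00000021466 was at 5707, 8362 and 13498 CPM in the 3 control parenchyma libraries and at 310.6 to 884 CPM in the 4 control liver libraries (log2 fold change -3.34, edgeR adjusted p = 9.73e-05). ENSBTAG00000013103 was at 3832, 7107 and 8803 CPM in control parenchyma and at 44.2 to 274 CPM in control liver (log2 fold change -4.99, edgeR adjusted p = 3.25e-05). ENSBTAG00000017121 was at 31233 to 51120 CPM in control liver and at 0.673 to 3.96 CPM in control parenchyma (log2 fold change 14.72, edgeR adjusted p = 1.57e-06). ENSBTAG00000007273 was at 16260 to 35133 CPM in control liver and at 1.91 to 4.10 CPM in control parenchyma (log2 fold change 13.77, edgeR adjusted p = 6.73e-07). Genes were chosen in the unlimited and restricted libraries, and the choice used their levels, so the lower levels in control parenchyma are a description.

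**Figure D5:**
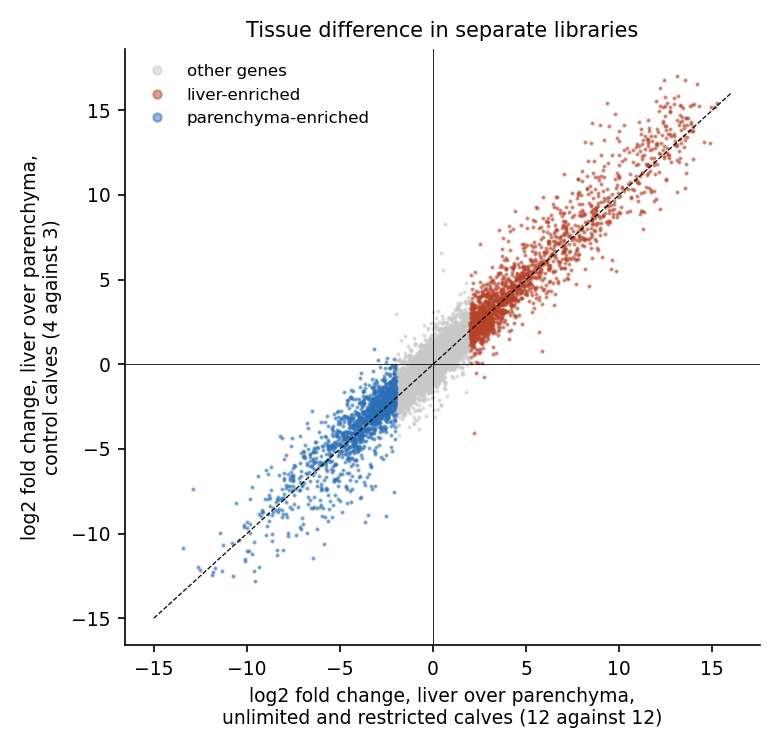
Log2 fold change of liver over parenchyma in control calves (y axis, 4 against 3 libraries) against that in unlimited and restricted calves (x axis, 12 against 12), with a point for each of 14851 genes in both fits and a dashed line of equal values. Liver-enriched genes lie along the line up to the largest values, and 1716 of 1719 liver-enriched and 1414 of 1419 parenchyma-enriched genes have the same sign.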

How the data were processed

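Ribosomal RNA was removed from the total RNA, and indexed libraries were pooled for paired-end sequencing, per the labels' protocols. The authors deposited raw read counts per gene for each library. FastQC, STAR 2.7.8, HTSeq 1.99.2, DESeq2 and the build ARS-UCD1.2 are named per the submitters' processing notes. For strand and multi-read settings, the sources used here give nothing, so overlapping or antisense genes and near-identical copies cannot be separated. The 5 summary entries of each file stayed out of library sizes and tests. The largest of them, reads outside annotated genes, was 59.0% to 74.2% of uniquely placed reads in the 12 liver libraries and 53.0% to 75.8% in the 12 parenchyma libraries.

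Groups come from the tissue and diet labels. Of 48 labelled samples 47 had a file, and the parenchyma control numbered 2 was not analysed here. Counts were fitted with edgeR 4.0.16 (R 4.3.3): genes were kept by filterByExpr (minimum count 10, minimum total 15), scaled by TMM and given a robust quasi-likelihood F test of tissue with diet as covariate. A call is a Benjamini-Hochberg adjusted p under 0.05, over every gene tested. The control libraries and each diet were fitted alone by the same steps. The 2-fold limit used glmTreat. SEs are from the F statistic. The fit was tested on simulated data in which a small share of genes differed, by 4-fold at most. That setting is unlike these tissues and does not test the TMM scaling used here. CPM values in the text are counts per M gene counts, without TMM. TMM-scaled levels were used for overlap counts over all genes, SDs of log2 CPM, classes of mean level and correlations between libraries. Library measures were compared by permuting libraries (scipy 1.17.1, 100000 resamples for 12 against 12, exact otherwise), adjusted over 24 tests. The identifiers named are the 2 of highest mean CPM in their own tissue among the enriched genes of each side. Fixed gene lists by symbol could not be run. The members, tests and limits were chosen with earlier results of these data known. Alternatives were DESeq2 1.42.0, limma 3.58.1 voom with quality weights, other scalings, filters, fold limits, covariates and libraries left out.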

Additional observations from a re-analysis of the deposited data

Results flagged for a closer look

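A library lay far from the rest of its group in 7 of 59 combinations of a measure with a group of 4 to 6 libraries, where chance gives about 1 in 20. The combinations reuse the same libraries and related measures, so they are not independent. Parenchyma restricted 5 had 17.2 M gene counts, against 9.70 to 11.8 M in the other 5. The 10 most abundant genes held 19.0% of counts in liver restricted 16, against 21.1% to 22.0% in the others, and 17.7% in parenchyma unlimited 3, against 15.1% to 15.9%. Liver restricted 8 was high in both named parenchyma-enriched genes, with ENSBTAG00000021466 at 1159 CPM (others 380.4 to 567.7) and ENSBTAG00000013103 at 297 CPM (others 44.9 to 132). The liver-enriched ENSBTAG00000017121 was at 14.7 CPM in parenchyma unlimited 3 (others 2.27 to 5.34) and at 14.0 CPM in parenchyma restricted 4 (others 4.30 to 6.98).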

How the results depend on the processing

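Counts of called and enriched genes stayed within 1.5 times under DESeq2, limma voom, DESeq2 size factors and the covariates, except that library totals alone gave 3754 genes higher in liver and no low-count filter gave 2689 parenchyma-enriched genes. Without that filter liver-enriched genes rose as well, from 1859 to 2747. Leaving out each of the 24 libraries in turn gave 11584 to 11884 called genes, 5665 to 5910 higher in liver and 5916 to 6012 higher in parenchyma. It gave 1863 to 1924 liver-enriched and 1665 to 1742 parenchyma-enriched genes. Each of these fits kept more genes after the low-count filter, 15781 to 15909 against 15629. Their enriched counts all lay above the 1859 and 1639 of the full fit. Leaving out each of the 7 control libraries in turn, with the enriched genes fixed, gave 80.6% to 84.6% of them called in the same direction. With all 7 it was 84.7%. The share of liver counts in liver-enriched genes was 55.6% at a 2-fold and 34.7% at a 16-fold limit. That of parenchyma-enriched genes in parenchyma was 35.1%, 16.8% and 12.4% at 2-, 8- and 16-fold limits and 26.5% with library totals alone. The diet difference of the enriched share was -8.41 to -5.97 points in liver (exact permutation p 0.00433 to 0.0217) and 0.311 to 1.45 in parenchyma without each library in turn, a check added after seeing the data. Liver and parenchyma libraries share title numbers, and their deviations correlated at -0.0102 to 0.191, over 0.1 in 8 of 12 pairs. The closest parenchyma library had the same number for 9 of 12 liver libraries, all 6 unlimited and 3 restricted, a hint of pairing from the data and not from the labels. With it as a replicate block edgeR called 11465 genes, 1855 liver-enriched and 1712 parenchyma-enriched, and the p for concentration was 0.000488 (exact). Depth limits genes of a few counts.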

Other observations

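The fat pad, the adipose bed into which the parenchyma grows, took no part in choosing the genes. In the 12 fat pad libraries of unlimited and restricted calves, parenchyma-enriched genes held 13.5% ± 2.28 of counts (SD, n = 12), from 8.97% to 16.7%, below all 12 parenchyma and above all 12 liver libraries. These genes had been chosen to be high in those parenchyma and low in those liver libraries, so this order is a description. In the 3 control parenchyma libraries they held 16.1%, 16.2% and 18.7%, which overlaps the fat pad range. Liver-enriched genes held 4.10% ± 0.330 of fat pad counts, from 3.69% to 4.73%, above all 12 parenchyma libraries, in which these genes had been chosen to be low. It took 812 ± 79.5 genes to reach 50% of fat pad counts, and 658 to 925 in single libraries, more than in any liver or parenchyma library of the same diets. The 3 control parenchyma libraries took 622, 694 and 702 genes, which overlaps the fat pad range. The most abundant parenchyma-enriched gene, ENSBTAG00000021466, was at 8127 to 27600 CPM in fat pad, overlapping the range of parenchyma.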
